A study of Danio rerio with 8 samples.

Results

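Mitochondrial 16S ribosomal RNA, the RNA of the large subunit of the mitochondrial ribosome, was the most abundant feature in patch-seq libraries of CaD neurons. It is 1 of the 37287 features listed (ENSDARG00000080337) and was chosen by its FPKM, the highest median of any feature over the libraries, so its level is given as a description with no test. Patch-seq draws the content of 1 neuron into a glass pipette for amplification and sequencing. The neurons of this caudal brainstem nucleus were retrogradely labeled from the spinal cord in Tg(Glyt2:GFP) zebrafish (genotype given as gly2:GFP in the labels), a line in which the promoter of the glycine transporter GlyT2 drives GFP, so that the choice of cells rests on the reporter. The larvae were 12 to 14 days old. The 8 libraries form 1 group with no second condition, and the series design gives 1 neuron per fish, although the counts of M1 were not independent of those of 3 other libraries. In order of falling 16S rRNA they are M17, M1, M16, M2, M9, M11, M5 and M6. The values are FPKM, fragments counted on a feature relative to its length and to the library total, so that counts on different features can be compared per length.

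The mitochondrial genome of vertebrates codes for a pair of ribosomal RNAs, the transfer RNAs and 13 mRNAs of the respiratory chain and the ATP synthase. The ribosomal RNAs and nearly all of the mRNAs are cut from long transcripts of the heavy strand, and mt-nd6 is the only mRNA read from the light strand. The 16S rRNA holds the peptidyl transferase centre and is assembled with ribosomal proteins that are all made from nuclear genes and imported. The labels give the molecule as polyA RNA, and the cDNA kit primes on A tails. How fully each RNA was primed was not measured. The ratios below are therefore ratios of FPKM and need not be ratios of RNA amounts in the cell.

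The ID ENSDARG00000080337 has no symbol in the gene table used here, and its name rests on the feature's definition and on its length. Lengths and whole reads could be recovered from the FPKM, and the length of this feature came to 1683 bases, equal to that of mt-rnr2, the 16S gene, in RefSeq. The 13 mitochondrial mRNAs had symbols, and 13 of 13 recovered lengths were equal to those in RefSeq. Length alone does not identify a gene, since 10 features shared the length of 1683 bases. A second feature without a symbol, ENSDARG00000082753, had the length of mt-rnr1, the gene of the small subunit's 12S rRNA that precedes 16S on the mitochondrial genome. At 952 bases this length was shared by 14 features, and the feature is called by its ID below.

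The 7 libraries other than M1 held between 9861756 and 13761924 counted reads, and M1 held 47723986. M1 was not independent of 3 others. When the reads of M17, M16 and M11 were added up, 17836 features had 10 reads or more, and M1 had exactly this sum at 43.6% of them, more at 52.9% and fewer at 3.44%. The main results are therefore also given without M1, and correlations only without it. Of the 2 markers of glycinergic neurons, slc6a5, the glycine transporter GlyT2 of glycinergic terminals, reached an FPKM of 1 in 1 library (1.22 in M11) and was between 0 and 0.371 in the other 7. The vesicular transporter slc32a1 reached it in 4 (26.9 FPKM in M11, 8.58 in M1, 5.64 in M17 and 2.95 in M6). Of these 4, M1 does not count as separate evidence, because it is not independent of M11 and M17. The neuronal RNA-binding proteins elavl3 and elavl4 were above 100 FPKM in every library, the lowest being 103.5 for elavl4 in M17.

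The 16S rRNA was the highest feature in all 8 libraries. It had 337710 FPKM in M17, 283378 in M1, 259969 in M16, 231234 in M2, 183755 in M9, 173855 in M11, 171166 in M5 and 129399 in M6. The mean was 221308 ± 69301 FPKM (SD, n = 8; median 207495), or 212441 ± 69780 without M1 (SD, n = 7; median 183755), and the highest and lowest libraries, M17 and M6, lay 2.61-fold apart. No cell was given as measured more than once, so the spread between repeats of 1 cell is not known. The value of M1 is not independent of those of M17, M16 and M11. The next feature by median was mt-co2, with 30440 FPKM over the 8 libraries. Against the second feature of each library, 16S rRNA stood 5.52-fold (over nefla in M5) to 7.29-fold (over mt-co2 in M16) higher.

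In whole reads, 16S rRNA took 6490467 reads in M17, 22760803 in M1, 4314788 in M16, 4981683 in M2, 3118389 in M9, 3741206 in M11, 3013457 in M5 and 2997040 in M6. Of all counted reads these were 56.8% in M17, 47.7% in M1, 43.8% in M16, 38.9% in M2, 30.9% in M9, 29.3% in M11, 28.8% in M5 and 21.8% in M6. The 95% Wilson intervals reached at most 0.031 percentage points to either side. They treat each read as a separate observation, which reads copied from 1 molecule by PCR are not. They are therefore too narrow even for counting error, and they do not measure the spread between cells. The share had a median of 34.9% over 8 libraries and of 30.9% without M1. The reads left for all other features numbered 4929058 of 11419525 in M17 and 10764884 of 13761924 in M6.

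**Figure D1:**
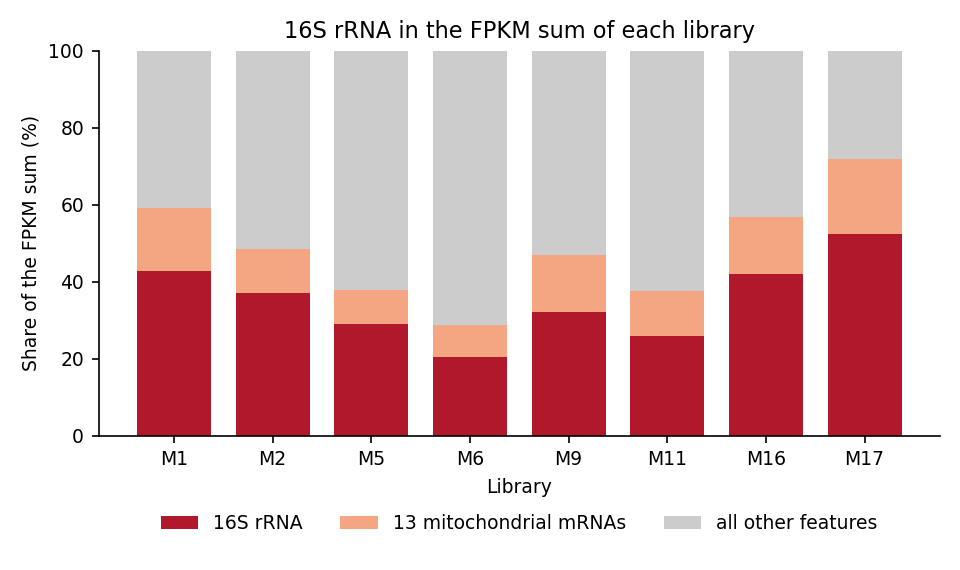
Share of the FPKM sum of each library (%, vertical axis) taken by 16S rRNA (red), by the 13 mitochondrial mRNAs together (orange) and by all other features (grey), with 1 bar for each of the 8 libraries. 16S rRNA ranged from 20.4% in M6 to 52.3% in M17, and the mRNAs were also lowest in M6 (8.33%) and highest in M17 (19.6%).

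Set against the FPKM sum of all other features, 16S rRNA varied widely between libraries. The ratio was 1.096 in M17, 0.749 in M1, 0.722 in M16, 0.586 in M2, 0.473 in M9, 0.349 in M11, 0.408 in M5 and 0.256 in M6. M17 was the only library in which 16S rRNA exceeded everything else together. The median ratio was 0.530 over 8 libraries and 0.473 without M1, with a 4.28-fold range in both sets. The denominator falls as 16S rRNA takes more of the sum, and the share of the FPKM sum itself had a 2.56-fold range. With the 13 mRNAs and ENSDARG00000082753 also left out of the denominator, the range was 6.55-fold, from 0.287 in M6 to 1.88 in M17.

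The ratio of 16S rRNA to mt-co2, the mRNA of a catalytic subunit of cytochrome c oxidase (complex IV), was much more alike from library to library. It was 6.77 in M17, 7.11 in M1, 7.29 in M16, 7.86 in M2, 5.84 in M9, 6.41 in M11, 8.98 in M5 and 6.42 in M6. The mean was 7.09 ± 0.99 (SD, n = 8; median 6.94), and without M1 7.08 ± 1.06 (SD, n = 7; median 6.77). M5 was highest and M9 lowest, 1.54-fold apart, whereas 16S rRNA itself spanned 2.61-fold and mt-co2 2.62-fold. On the log2 scale the SD over the 7 libraries without M1 was 0.21 for the ratio, 0.46 for 16S rRNA and 0.48 for mt-co2. Across these 7 libraries, 16S rRNA and mt-co2 FPKM had a Pearson r of 0.935 and a Spearman rho of 0.929. Both values of a library share its depth and its FPKM sum. The share of reads on 16S rRNA and its ratio to mt-co2 had a rho of 0.107 and an r of 0.0540 over the same 7 libraries.

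**Figure D2:**
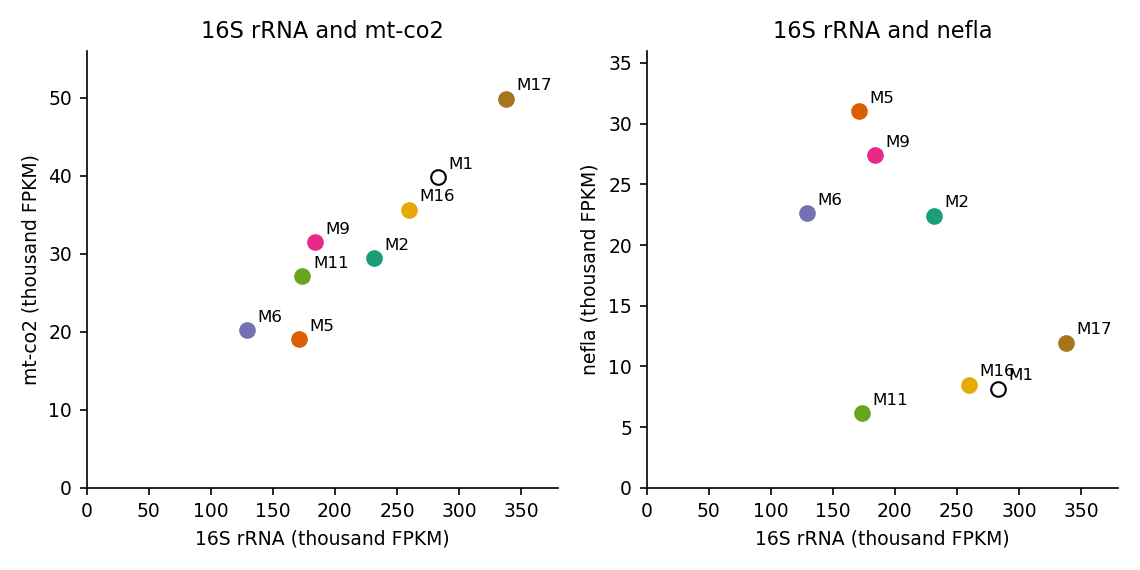
FPKM of 16S rRNA (horizontal axis) against that of mt-co2 (left) and of nefla, a neurofilament gene (right), with both axes in units of 1000 FPKM, 1 point for each library and M1 as an open circle. mt-co2 was highest in M17, as 16S rRNA was. The nefla level lay between 22409 and 31028 FPKM in M2, M5, M6 and M9. In M1, M11, M16 and M17 it lay between 6169 and 11969 FPKM, and M1 is not independent of M11, M16 and M17.

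The 3 cytochrome c oxidase mRNAs kept the narrowest ratios. Per kilobase, 16S rRNA stood 17.3-fold (M6) to 23.4-fold (M5) above mt-co1, the core subunit, with a median of 20.1 over 8 libraries. Above mt-co3 it stood 16.2-fold (M11) to 25.4-fold (M2), with a median of 18.9. The SDs of the log2 ratio over the 7 libraries without M1 were 0.18 for mt-co1, 0.21 for mt-co2 and 0.25 for mt-co3. For mt-cyb, the cytochrome b of complex III, the ratio was between 15.8 in M11 and 38.1 in M5, with an SD of 0.46.

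Among the 7 mRNAs of complex I, the NADH dehydrogenase, mt-nd3 and mt-nd4 followed 16S rRNA most closely. The ratio to mt-nd3 ran from 78.2 in M11 to 148.6 in M2 and that to mt-nd4 from 86.5 in M9 to 140.1 in M2, with SDs of 0.28 and 0.29 on the log2 scale. For mt-nd5 the SD was 0.40, for mt-nd2 0.50, for mt-nd1 0.50, for mt-nd6 0.56 and for mt-nd4l 0.63. M9 had the lowest ratio for 5 of these 7. Its mt-nd1 level, 3310 FPKM, was the highest of the 8 libraries. The light-strand mRNA mt-nd6 had its lowest ratio in M5, at 123.9, against 242.3 to 457.4 in the other 7 libraries. M5 had the highest mt-nd6 level of all libraries, 1382 FPKM, beside one of the lower 16S rRNA levels. The FPKM alone do not show from which strand the reads on mt-nd6 came.

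The ATP synthase mRNAs gave ratios of 21.4 (M9) to 44.8 (M16) for mt-atp6 and of 135.0 (M11) to 328.5 (M17) for mt-atp8, with SDs of 0.39 and 0.49. Several of these genes overlap their neighbour in RefSeq (mt-atp8 and mt-atp6, mt-atp6 and mt-co3, mt-nd4l and mt-nd4, mt-nd5 and mt-nd6). How reads in an overlap were counted is not given in the sources used here, which matters most for the short mt-atp8 and mt-nd4l. Of the 13 mRNAs, 8 had their highest FPKM in M17, the library with the highest 16S rRNA, and 13 of 13 had their lowest in M5 or M6.

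The feature ENSDARG00000082753 lay far below 16S rRNA. It had 2193 FPKM in M17, 2507 in M1, 1725 in M16, 2552 in M2, 1438 in M9, 1412 in M11, 1594 in M5 and 998 in M6. The ratio of 16S rRNA to it was 124.5 ± 21.3 (SD, n = 8; median 125.5) and 126.2 ± 22.4 without M1 (SD, n = 7), from 90.6 in M2 to 154.0 in M17. Its ratio varied little, with an SD of 0.27 on the log2 scale.

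**Figure D3:**
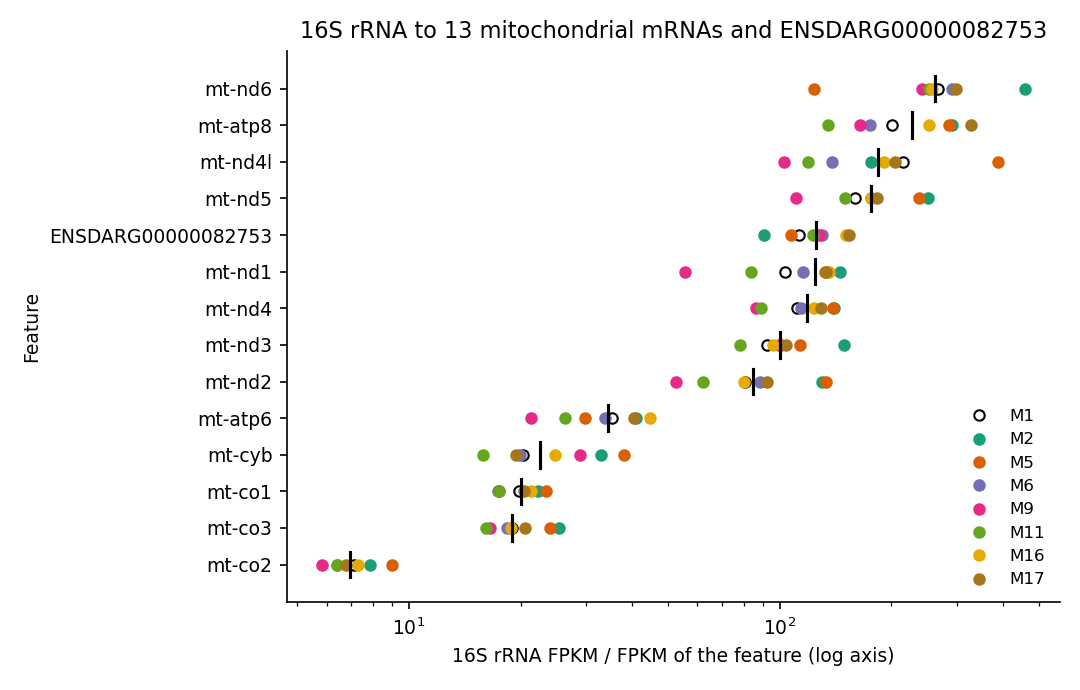
Ratio of 16S rRNA FPKM to the FPKM of each of the 13 mitochondrial mRNAs and of ENSDARG00000082753 (horizontal log axis), with 1 point for each library, M1 open, and a vertical bar at the median over 8 libraries. Medians run from 6.94 for mt-co2 to 262.8 for mt-nd6, and the points of mt-co1 and mt-co2 lie closest together.

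Summed over the 13 mRNAs, the ratio of 16S rRNA was 2.67 in M17, 2.61 in M1, 2.80 in M16, 3.23 in M2, 2.19 in M9, 2.20 in M11, 3.28 in M5 and 2.45 in M6. Its mean was 2.68 ± 0.42 (SD, n = 8; median 2.64) and 2.69 ± 0.45 without M1 (SD, n = 7; median 2.67). The highest and lowest of these ratios, in M5 and M9, lay 1.501-fold apart.

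FPKM of 1 library share a sum, so that a high 16S rRNA lowers the values of all other features. The mRNAs were high where 16S rRNA was high even after 16S rRNA had been taken out of the sum. Of the remaining FPKM they made up 41.0% in M17, 28.7% in M1, 25.7% in M16, 18.2% in M2, 21.7% in M9, 15.8% in M11, 12.4% in M5 and 10.5% in M6. Over the 7 libraries without M1, this percentage and the ratio of 16S rRNA to all other features had a Spearman rho of 0.929 and a Pearson r of 0.964. Both measures have the same denominator, the FPKM other than 16S rRNA. Single mRNAs were not examined with 16S rRNA taken out. Over the same 7 libraries, the rho of their FPKM with that of 16S rRNA differed between them. It ran from 0.357 for mt-nd6 and 0.393 for mt-atp8 to 0.929 for mt-co1 and mt-co2.

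To see which features were most like 16S rRNA, the SD of the log2 ratio over the 7 libraries without M1 was taken for the 3742 other features that reached 1 FPKM in every library. The 5 lowest were mt-co1, mt-co2, mt-co3, ENSDARG00000082753 and sipa1, a GTPase-activating protein gene at a median of 10.5 FPKM (SD 0.27). The order with M1 included was the same for the first 4. Of the 13 mRNAs, 5 were among the first 7 features, 12 among the first 100, and the last, mt-nd4l, was at place 102. Over all 3742 features the median SD was 1.29, with quartiles of 1.03 and 1.60. A feature that did not vary at all would have had the SD of 16S rRNA itself, 0.46, and 27 features lay below that, 8 of them mitochondrial mRNAs.

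Low features vary more between single cells through counting alone, so the mRNAs were also set beside the most abundant features. Of the 40 features with the highest median FPKM after 16S rRNA, 26 were not mitochondrial, and their SDs ran from 0.48 (rplp2, a cytosolic ribosomal protein gene) to 2.13 (mbpa), with a median of 1.17. The SDs of 8 of the 13 mRNAs were below the lowest of these 26, and 2 of the 26 were below the highest of the mRNAs. The ratio of 16S rRNA to nefla, which codes for a neurofilament light chain, spanned 6.30-fold, from 5.52 in M5 to 34.8 in M1. Without M1, the ratio reached at most 30.6, in M16. To nefmb, a neurofilament medium chain gene, it spanned 3.83-fold, from 7.47 in M5 to 28.6 in M11. To mbpa, a myelin basic protein gene, it spanned 55.1-fold, from 6.36 in M2 to 351 in M5.

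**Figure D4:**
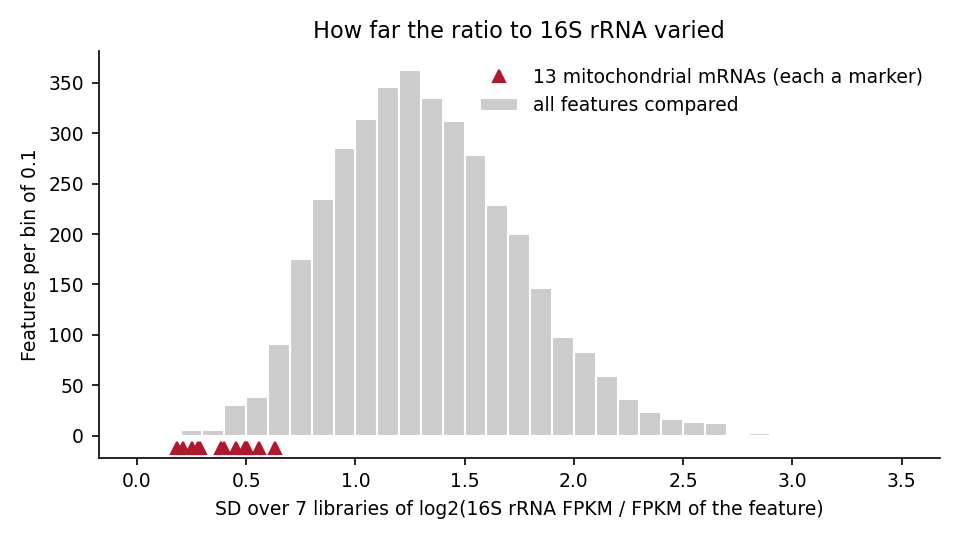
Number of features (vertical axis, bins of 0.1) by the SD over the 7 libraries without M1 of the log2 ratio of 16S rRNA FPKM to theirs, for the same 3742 features. Triangles mark the 13 mitochondrial mRNAs, which lie between 0.18 and 0.63 at the low end, while the median of all features is 1.29.

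Myelin genes differed strongly between the libraries. The summed FPKM of mbpa, plp1b and mpz, 3 of 3 markers present in every library, ran from 502 in M5 and 914 in M6 to 36572 in M2 and 36898 in M1. The libraries lowest in 16S rRNA, M6 and M5, were also the lowest in this sum, but M17, the highest in 16S rRNA, had 17190, below M1, M2 and M11 (21248). The sum was nearly all mbpa, which had 16950 FPKM in M17. Of the other markers, plp1b was highest in M17, at 137.9 FPKM. For mpz, M17 had 101.4 FPKM, below M2 (135.8) and M1 (115.2) and above M11 (16.6). Over the 7 libraries without M1, 16S rRNA and the myelin sum had a rho of 0.571 and an r of 0.441. Of the other markers matched, the GABA enzyme gad2 had 0.0276 to 56.7 FPKM, the astroglial filament gfap 0.859 to 24.2, apoeb of microglia 2.27 to 223 and the haemoglobin hbaa1 0 to 1.08. The part of myelin RNA in the level of 16S rRNA was not tested.

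The nuclear genes whose products meet 16S rRNA in the mitochondrion had far lower FPKM. That they lie below it was set in advance, because 16S rRNA was chosen as the highest feature. Of the genes for mitochondrial ribosomal proteins, 47 of 51 symbols of the large subunit and 32 of 32 of the small subunit were matched. Of the large subunit 18 of 47 and of the small subunit 9 of 32 had an FPKM of at least 1 in all 8 libraries, or 38.3% and 28.1%, where 10.04% of all other features did. The most abundant were mrpl33 (median 46.3 FPKM), mrpl53 (44.3) and mrpl34 (35.5) of the large subunit and mrps18a (25.8), mrps12 (23.8) and mrps34 (22.2) of the small subunit.

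Together these 79 genes summed to 391 FPKM in M17, 915 in M1, 765 in M16, 932 in M2, 713 in M9, 2043 in M11, 1529 in M5 and 2392 in M6. The order was close to the reverse of that of 16S rRNA: M6 had the highest sum and the lowest 16S rRNA, and M17 the lowest sum and the highest 16S rRNA. Over the 7 libraries without M1, the Spearman rho of the 2 was -0.857. An inverse order was common among single features, as the median rho of the 3742 features at 1 FPKM or more in every library was -0.536. A sum pools several genes, so its rho is not directly comparable with that median. List sums had -0.893 for processing, polyadenylation and turnover, -0.643 for 16S rRNA modification and assembly and -0.464 for transcription. Scaled to 1000000 FPKM outside the mitochondrial genome, the ribosomal protein sums were still 5304 in M6 and 2176 in M17, the highest and the lowest of the 8 libraries. Over the 7 libraries without M1, this sum and the ratio of 16S rRNA to the non-mitochondrial FPKM had a Spearman rho of -0.893 and a Pearson r of -0.725. No median over all features was taken on this scale. Fewer of the 79 genes reached an FPKM of 1 in M17 (44) and M16 (49) than in the other 6 libraries (71 to 79), and M17 and M16 had the fewest reads left outside 16S rRNA. The part of these remaining reads in the sums was not tested. The share of all features at an FPKM of 1 or more was not counted for each library. The lower counts in M17 and M16 are therefore not shown to be particular to these genes.

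**Figure D5:**
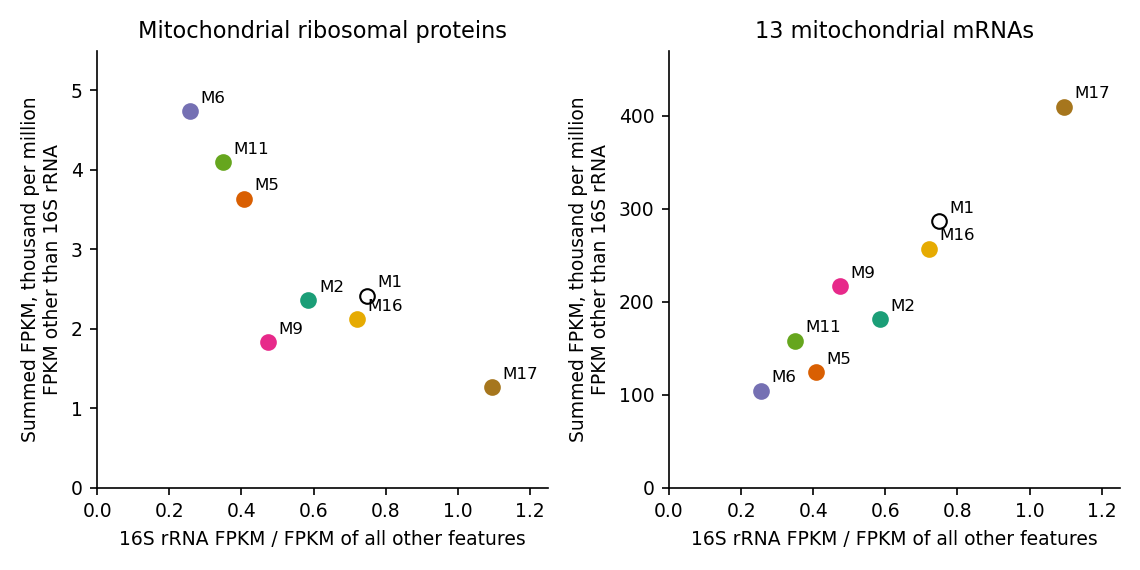
Summed FPKM of the 79 matched genes of mitochondrial ribosomal proteins (left) and of the 13 mitochondrial mRNAs (right), both in units of 1000 after scaling the FPKM other than 16S rRNA to a sum of 1000000, against the ratio of 16S rRNA to the FPKM of all other features (horizontal axis), with 1 point for each library and M1 open. The ribosomal proteins are highest in M6 and lowest in M17, and the mRNAs are lowest in M6 and highest in M17.

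Genes that act on 16S rRNA or on mitochondrial transcripts were far below 16S rRNA, which was chosen as the highest feature. The median of gene medians was 0.856 FPKM for 16S rRNA modification and assembly, 3.21 for transcription and 2.42 for processing, polyadenylation and turnover. It was 0.234 over all features but 16S rRNA that had any reads, whereas the modification and assembly list includes 1 gene, mrm2, that had none. Of all other features, 10.04% had an FPKM of at least 1 in all 8 libraries. Of 17 genes for 16S rRNA modification and assembly of the large subunit, 1, the pseudouridine synthase trub2, was at an FPKM of at least 1 in all 8 libraries (5.88%), with 3.76 to 13.3 FPKM. The ribosome assembly factor malsu1 had the highest median of the list, 15.3 FPKM, followed by mterf3 (6.27) and trub2 (6.04). The methyltransferase mrm2, which modifies a nucleotide of the 16S rRNA in human cells, was listed at 0 in all 8 libraries. Of 5 genes of mitochondrial transcription, none was at 1 FPKM or more in all 8: tfam, which packages and helps to transcribe mitochondrial DNA, had a median of 12.1 FPKM with 0.576 at its lowest, and polrmt, the mitochondrial RNA polymerase, a median of 0.348. Of 12 matched genes for processing, polyadenylation and turnover, 3 were at this level in every library. These were slirp (median 61.7 FPKM) and lrpprc (11.5), partners that stabilise mitochondrial mRNAs in mammals, and hsd17b10 (12.2), a subunit of mitochondrial RNase P.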

How the data were processed

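The 8 libraries, by the series design from 1 CaD neuron each, were prepared with the SMART-Seq v4 kit and sequenced as paired reads of 150 bp. According to the submitters' processing notes, HISAT2 2.0.4 and HTSeq 0.9.1 were used (the study's methods give HTSeq 0.6.0). The genome build and annotation are not given in the sources used here. The authors deposited FPKM, made from gene length and read count.

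Since FPKM is proportional to reads over length and library total, totals were taken from the most frequent ratio between libraries and lengths from the fractions left, with reads accepted as whole within 0.001. Recovered reads made up 99.87% to 99.95% of the totals. On simulated data, 8 of 8 totals and the reads of 99.5% of 14109 features present in at least 5 libraries were recovered. The simulation used 20999 features whose lengths and reads had been recovered from the real values, so it does not cover features that failed there. Each library was drawn on its own, without the overlap of M1 with M17, M16 and M11.

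Of 37287 features, 29178 had a symbol in the gene table, and RefSeq (GRCz12tu) was used for names, order and lengths of mitochondrial genes. Of 21 markers, 11 had a symbol match. Named features were 16S rRNA, mt-co2, other mitochondrial features with a symbol, the 4 next in median FPKM, the 5 with the steadiest ratio to 16S rRNA and the 3 highest of each list; ENSDARG00000082753, rplp2, mrm2, polrmt and the other genes named were picked after their values were seen. Members and lists were chosen with earlier results of these data known. With 1 group, no test between groups was made. Dixon's rule for a library far from the others was applied to 18 measures over 8 libraries and, added after seeing the data, over 7 without M1. The measures were left untransformed for this rule. Correlations are descriptions over 7 libraries without M1, which share library, depth and FPKM sum. Alternatives were other summaries, scales and denominators, a pseudocount of 1 and leaving out libraries. Python 3.11.15, numpy 2.4.6, pandas 2.3.3, scipy 1.17.1 and matplotlib 3.10.9 were used.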

Additional observations from a re-analysis of the deposited data

Results flagged for a closer look

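Of 18 measures of 16S rRNA compared between the 8 libraries, 1 had a library far from the others by Dixon's rule on untransformed values. The rule was not applied on the log2 scale, used above for the spread of ratios. Whether the same library stands out on that scale was not tested. The ratio of 16S rRNA to mt-nd4l, a short mRNA of complex I that overlaps mt-nd4, was 387.0 in M5 and 215 in the next library, M1, a gap of 0.606 of the whole range, above the 95% critical value of Dixon's rule. M1 is not independent of M17, M16 and M11, and without it the next library was M17 at 204.9, the gap was 0.641 of the range, and the same 1 of 18 measures stood out. The mt-nd4l level in M5 was 442 FPKM, the lowest of the 8 libraries. Chance alone would give such a gap in about 1 of 20 measures. The 18 measures are not separate, since all contain the 16S rRNA value. Its FPKM and its share of counted reads differ only in scale and had the same gap, 0.261 of the range. The cause of the mt-nd4l gap was not tested.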

How the results depend on the processing

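The 7 results were recomputed under 76 alternatives, of which 56 left out each library in turn, M1 included, and 20 changed another choice (4 of these 20, and leaving out libraries for ENSDARG00000082753, were added after seeing the data). In 3 cases the value moved by more than the spread between libraries, each by its construction: the 16S rRNA FPKM, 207495, was 345348 when every library was rescaled to the same total, and its ratios to mt-co2 (6.94) and to the 13 mRNAs (2.64) were 16.9 and 4.91 in reads, which are not per length. The other 17 of the 20, and 56 of 56 that left out a library, moved the value by less than the limit set for it. This limit was that spread, except for the SD of the log2 ratio to mt-co2. There it was a standard error from leaving out each library in turn, 0.058. With the other mRNAs summed in place of mt-co2, this SD was 0.250, close to that limit. A median over 8 libraries cannot move by more than their SD when 1 library is left out or the mean is taken. Most of these counts were therefore set in advance and do not show how robust the results are. The 16S rRNA FPKM and its share of counted reads differ only in scale, so they are not separate results when a library is left out. Leaving out each library in turn gave medians of 183755 to 231234 FPKM, 30.9% to 38.9% of counted reads, 6.77 to 7.11 for the ratio to mt-co2, 0.473 to 0.586 to all other features, 2.61 to 2.67 to the summed mRNAs and 123.1 to 127.8 to ENSDARG00000082753. The SD of the log2 ratio to mt-co2, 0.19 over 8 libraries, was 0.14 to 0.21 and was lowest without M5. No ratio to 12S rRNA by name was computed, because no ID was paired with its symbol. No paired analysis was possible because there is 1 group.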

Other observations

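The reads of M17, M16 and M11 were summed and set beside M1, which equalled the sum at many features. M1 held 22760803 reads of 16S rRNA and the 3 libraries together 14546461, so M1 had 1.56 times as many. For the 13 mitochondrial mRNAs, M1 had between 1.24 times (mt-nd4l) and 1.76 times (mt-nd1) the summed reads, where M1 had 1.40 times the counted reads in all. The further reads of M1, taken as a library of their own, had a ratio of 16S rRNA to mt-co2 of 7.70 per kilobase, against 6.82 in the sum of the 3 libraries and 5.84 to 8.98 in the 7 libraries without M1. The ratio to the 13 mRNAs together was 2.69 in the further reads and 2.57 in the sum. The share of 16S rRNA was 60.1% in the further reads, above the 21.8% to 56.8% of the 7 libraries without M1. At 3.44% of the features with 10 reads or more in the sum, M1 had fewer reads than the sum. The further reads are thus a difference and not a measured library.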
